A study of Mus musculus with 20 samples.

Results

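The transcripts described here encode 9 secreted proteins of the eye's glands, the salivary glands and related tissues: *Obp1a*, *Obp1b*, *Gm5938*, *Mup4*, *Pip*, *Scgb2b2*, *Mucl2*, *Lcn11* and *Wfdc18*, taken by symbol from the 24552 genes measured. They were chosen by their measured levels in these same libraries, which earlier results had shown to be high in 2-month corneal epithelium, so their difference from the 2-month libraries is a description and was not tested. The corneal epithelium was scraped from naïve, wild-type female C57BL/6J mice, and both corneas of 1 animal made 1 library. There were 20 libraries, 5 each from mice aged 2 to 3 months (2-month), 12 to 13 months (12-month), 18 to 19 months (18-month) and 24 to 25 months (24-month). No group carried a transgene or a treatment. The mice were bought and aged in house or came from an aging colony, and the source of each animal is not given in the sources used here, so age and source cannot be told apart.

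The tear film is made outside the cornea. The lacrimal gland secretes most of its water and protein, the meibomian and Harderian glands add lipid, and the conjunctiva adds mucin. Lipocalins, the family of the odorant-binding proteins (Obp) and major urinary proteins (Mup), are small secreted carriers of hydrophobic molecules. Secretoglobins are small secreted dimeric proteins of exocrine glands, and WAP four-disulfide proteins are secreted and often inhibit proteases. In a scraped tissue measured in bulk, fewer cells of a type and less RNA per cell cannot be told apart.

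The 3 odorant-binding genes lie together on the X chromosome of GRCm38 (*Obp1a*, NCBI gene 18249, 78085505 to 78091374; *Gm5938*, 546335, 78125467 to 78130403; *Obp1b*, 628991, 78186808 to 78192242). With their neighbour *Gm14743* they span 160.4 kb. The other members are on 6 further chromosomes: *Mup4* (17843) on chromosome 4 from 59956804 to 59960667, *Pip* (18716) on chromosome 6 from 41847549 to 41852065, *Scgb2b2* (381970) on chromosome 7 from 31302769 to 31304977, *Mucl2* (20770) on chromosome 15 from 103895855 to 103899312, *Lcn11* (227630) on chromosome 2 from 25777017 to 25780279 and *Wfdc18* (14038) on chromosome 11 from 83709004 to 83711360. All are annotated as protein coding.

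The 80 bases before each transcription start site are shown because the members were high together in the same libraries, and because near-identical copies bear on how reads were assigned. The sequences are from RefSeq on GRCm38.p6, on the strand of the gene, and all 9 members matched. Capitals mark TATAAA, the core of the TATA box, where it was found on that strand.
Obp1a (chrX:78091375-78091454, minus strand): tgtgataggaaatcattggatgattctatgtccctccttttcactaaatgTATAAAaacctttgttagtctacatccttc
Gm5938 (chrX:78125387-78125466, plus strand): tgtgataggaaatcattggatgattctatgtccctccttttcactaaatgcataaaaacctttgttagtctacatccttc
Obp1b (chrX:78186728-78186807, plus strand): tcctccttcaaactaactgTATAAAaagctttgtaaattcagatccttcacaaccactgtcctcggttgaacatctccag
Mup4 (chr4:59960668-59960747, minus strand): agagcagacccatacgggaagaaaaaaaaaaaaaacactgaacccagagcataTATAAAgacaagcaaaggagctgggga
Pip (chr6:41847469-41847548, plus strand): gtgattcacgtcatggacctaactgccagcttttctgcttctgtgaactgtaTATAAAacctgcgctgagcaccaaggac
Scgb2b2 (chr7:31302689-31302768, plus strand): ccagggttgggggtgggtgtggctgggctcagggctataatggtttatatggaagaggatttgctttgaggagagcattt
Mucl2 (chr15:103899313-103899392, minus strand): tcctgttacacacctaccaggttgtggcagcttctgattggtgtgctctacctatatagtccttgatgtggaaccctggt
Lcn11 (chr2:25776937-25777016, plus strand): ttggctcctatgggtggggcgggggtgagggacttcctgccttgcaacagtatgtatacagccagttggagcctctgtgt
Wfdc18 (chr11:83708924-83709003, plus strand): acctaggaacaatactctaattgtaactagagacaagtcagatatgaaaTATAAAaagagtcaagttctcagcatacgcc

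TATAAA was present on either strand of the 300-base window, 250 bases before to 50 after the start, in 6 of the 9 members and in 13.6% of the 32851 promoters in the table. It began 40 to 20 bases before the start, on the gene's strand, in 4 of 9 members (*Obp1a*, *Mup4*, *Pip* and *Wfdc18*) and in 1.99% of all promoters. *Obp1a* and *Gm5938* were identical at 79 of the 80 bases printed, and the only difference was T51C, counted from 1 at the first base printed, with the *Obp1a* base first. That position is the first base of TATAAA in *Obp1a*. These matches are a description of letters in a window, and no binding was measured.

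Copies of these genes limit what a read can say. The libraries hold reads from the end of each transcript next to the poly(A) tail, so the last 400 bases of each member's transcript were cut into every 50-base stretch and looked up in the transcripts of all other genes. None of the 351 stretches of *Obp1a* or of *Gm5938* lay in another gene, so these genes can be told apart there in spite of their start regions. For *Obp1b*, 193 of 351 stretches (55%) also lay in *Gm14743*, and for *Mup4*, 65 (18.5%) also lay in other Mup genes, among them *Mup5*, so the counts of *Obp1b* and *Mup4* are uncertain to that extent. No stretch of *Pip*, *Scgb2b2*, *Mucl2*, *Lcn11* or *Wfdc18* was shared.

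The libraries held 6699383 to 10762360 reads on genes. Markers of the corneal epithelium, led by the keratin *Krt12* and the crystallin *Aldh3a1*, were high in all 20 libraries, with summed normalized counts of 450880 to 574510 in the 2-month group and 468430 to 528720 in the aged groups, a term used here for the 12-, 18- and 24-month groups together. A normalized count is the number of reads divided by a size factor for the library, which was 0.7603 to 1.3343. In all, the 8 members other than *Wfdc18* had 22492 reads, of which 21772 (96.8%) were in the 2-month libraries and 720 (3.2%) in the 15 aged libraries. For 8 of the 9 members every 2-month library was above every aged library, which held for 34 of the 11288 genes whose normalized count averaged 10 or more over all libraries (0.301%). This contrast chose the members, so nothing is read from that count. The exception was *Mucl2*.

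**Figure D1:**
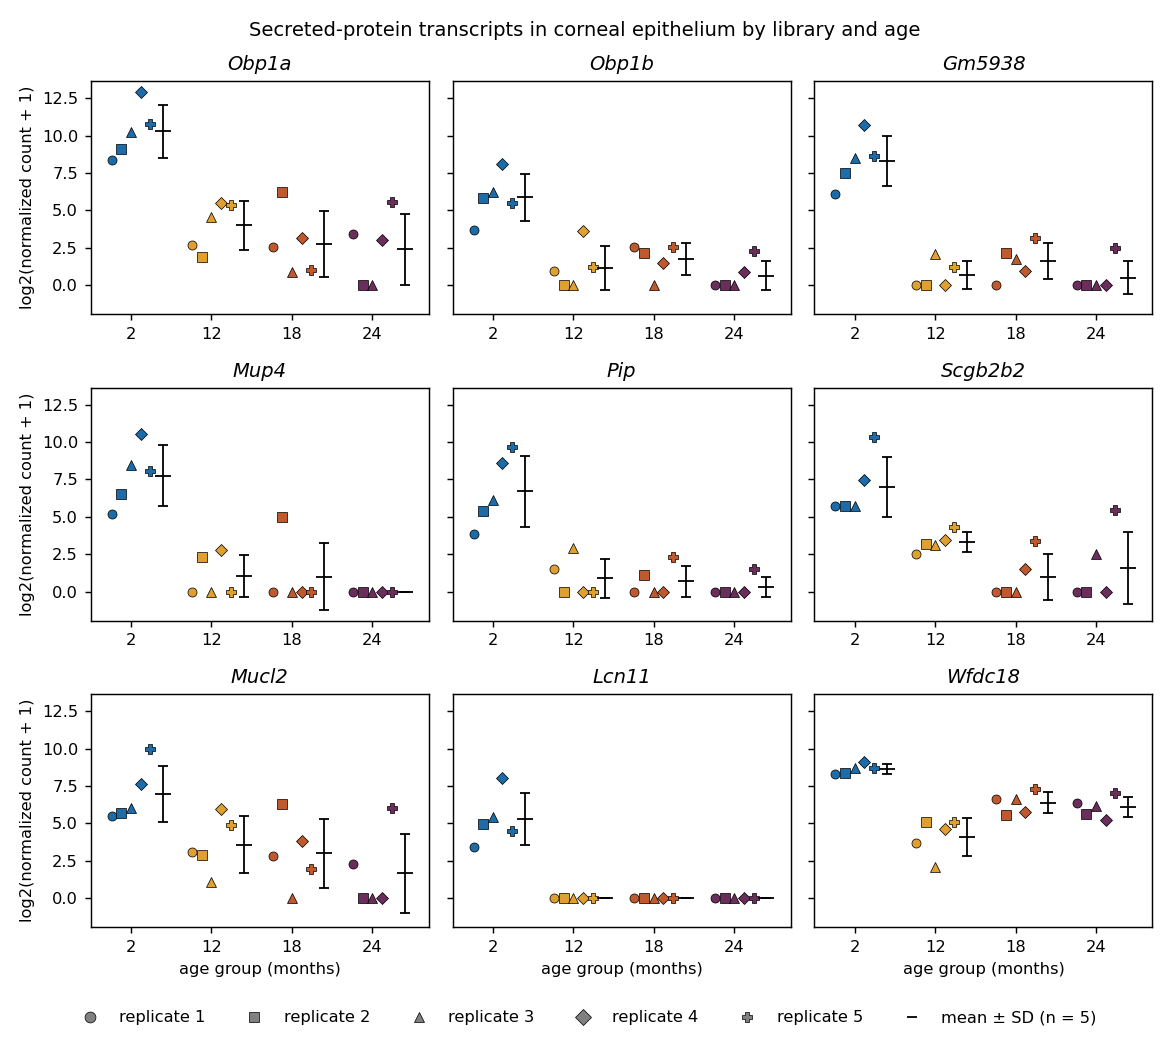
Level of each of the 9 transcripts in the 20 libraries, as log2(normalized count + 1) on the y axis against age group in months on the x axis. Each point is 1 library, its shape gives the replicate number, and the black bar is the mean ± SD of 5 libraries. Every 2-month library lies above every aged library in 8 of the panels, with *Mucl2* the exception, and *Wfdc18* is the panel in which all 15 aged libraries have reads.

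Among the odorant-binding genes, *Obp1a* had 299, 732, 1295, 7391 and 1817 reads in 2-month replicates 1 to 5. The 12-month libraries had 6, 2, 21, 44 and 32 reads, the 18-month libraries 4, 63, 1, 9 and 1, and the 24-month libraries 10, 0, 0, 8 and 48. The mean normalized count was 2323 ± 3128 (SD, n = 5) at 2 months and 23.1 ± 19.2, 17.7 ± 31.5 and 12.4 ± 18.8 at 12, 18 and 24 months. The lowest 2-month library, replicate 1, was 4.44 times the highest aged library. The 2-month libraries themselves differed by 23.9 times, and the SD of this group was larger than its mean.

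*Gm5938*, the neighbour that shares most of the sequence before its start with *Obp1a*, had 61, 243, 398, 1583 and 415 reads in the 2-month libraries. The 15 aged libraries had at most 8 reads, and 8 of them had none. Its 2-month mean normalized count was 537 ± 652, against 1.58 over the aged libraries. Of the members with any aged read it stood farthest from the aged libraries, since its lowest 2-month library was 8.64 times the highest aged one.

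*Obp1b*, whose counts *Gm14743* can touch, had 11, 74, 80, 260 and 46 reads at 2 months and 0 to 11 reads in each aged library. Here the groups only just separated. The lowest 2-month library had a normalized count of 12.1 and the highest aged library, 12-month replicate 4, had 11.02.

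*Mup4*, a lipocalin of the major urinary protein family, had 33, 123, 380, 1436 and 277 reads at 2 months. Reads were found in 3 aged libraries, with 3 and 6 at 12 months and 26 in 18-month replicate 2, and all 5 of the 24-month libraries had 0. *Lcn11*, another lipocalin, had 9, 41, 46, 251 and 23 reads at 2 months and 0 in all 15 aged libraries. Set against a floor of 3 reads in each aged library, its 2-month mean normalized count of 74.1 ± 108 was at least 24.4-fold higher.

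*Pip*, the prolactin-induced protein of tears and saliva, had 12, 54, 74, 370 and 842 reads at 2 months. The aged libraries had 0 to 6 reads, and 10 of the 15 had none. *Scgb2b2*, a secretoglobin, had 48, 70, 56, 163 and 1352 reads at 2 months. In normalized counts its replicates 1, 2 and 3 were close together at 52.6, 52.5 and 51.1, while replicate 5 reached 1283. *Scgb2b2* stayed detectable in all 5 of the 12-month libraries, with 5, 6, 7, 10 and 15 reads, and in 4 of the 10 older libraries, the highest being 24-month replicate 5 with 45.

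*Mucl2*, a mucin-like secreted protein, had 40, 68, 72, 188 and 1039 reads at 2 months. The aged libraries reached 61 reads at 12 months, 67 at 18 months and 68 at 24 months, which overlapped the lower 2-month libraries. The highest aged normalized count, 78.6 in 18-month replicate 2, was above that of 2-month replicates 1, 2 and 3 (43.8, 51.0 and 65.8).

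*Wfdc18*, a WAP four-disulfide protein, was spread differently. It had 281, 448, 449, 522 and 429 reads in the 2-month libraries, which differed by 1.80 times, whereas the other 8 members differed by 22.5 to 60.7 times among the same animals. It was found in every aged library, with 13, 25, 3, 24 and 26 reads at 12 months, 79, 40, 122, 60 and 162 at 18 months and 85, 61, 75, 42 and 139 at 24 months. The mean normalized counts were 403 ± 95.1, 21.05 ± 13.2, 90.1 ± 43.9 and 74.2 ± 36.5 at 2, 12, 18 and 24 months, so that the lowest level was at 12 months.

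**Figure D2:**
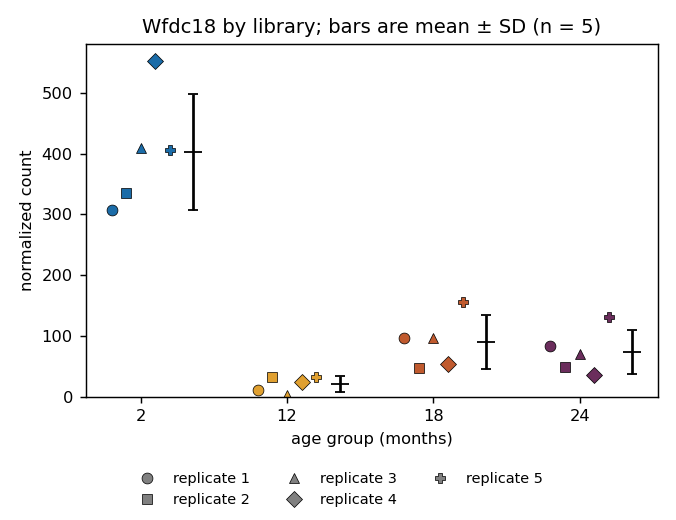
Normalized count of *Wfdc18* on the y axis, from 0, against age group in months. Points are libraries, with the replicate number given by shape, and bars are mean ± SD of 5 libraries. The 12-month libraries, at 3.21 to 33.1, all lie below the 18-month libraries, at 46.9 to 157, and the 24-month libraries, at 36.5 to 131.

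The reads were not shared evenly by the 2-month animals, and the members differed in which library held most of their counts. Replicate 4 held 67.4% of the 2-month normalized counts of *Obp1a*, 59.9% of *Obp1b*, 62.5% of *Gm5938*, 67.3% of *Mup4* and 71.8% of *Lcn11*. Replicate 5 held 60.9% of *Pip*, 79.6% of *Scgb2b2* and 73.3% of *Mucl2*, and in each of these 3 genes replicate 4 was next. *Wfdc18* was also highest in replicate 4, but with 27.5%. Replicate 1 was the lowest 2-month library for 8 of the 9 members, and *Scgb2b2*, whose lowest was replicate 3, was the other.

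**Figure D3:**
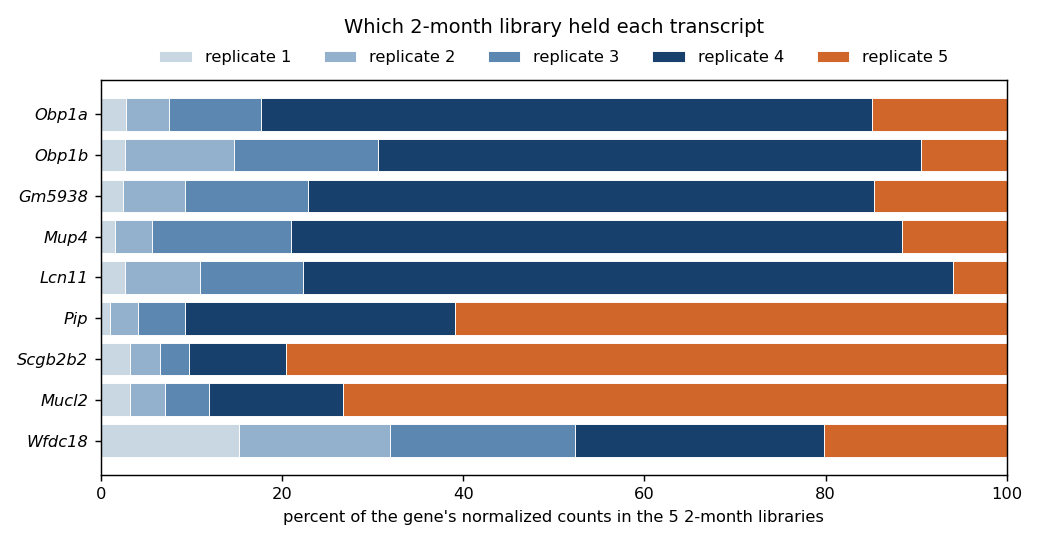
Share of each member's 2-month normalized counts held by each of the 5 2-month libraries, as stacked bars that sum to 100 percent. *Obp1a*, *Obp1b*, *Gm5938*, *Mup4* and *Lcn11* are mostly replicate 4 (59.9% to 71.8%), *Pip*, *Scgb2b2* and *Mucl2* are mostly replicate 5 (60.9% to 79.6%), and *Wfdc18* is spread over all 5.

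The mixture differed between animals as well as the amount. *Gm5938* kept a narrow ratio to *Obp1a*, 20.4, 33.2, 30.7, 21.4 and 22.8 reads per 100 *Obp1a* reads in replicates 1 to 5. *Mup4* ranged from 11.04 to 29.3 and *Obp1b* from 2.53 to 10.1 per 100. *Scgb2b2* ranged far more widely, with 16.1, 9.56, 4.32, 2.21 and 74.4 per 100, and *Mucl2* followed it with 13.4, 9.29, 5.56, 2.54 and 57.2. *Pip* had 4.01 to 7.38 per 100 in replicates 1 to 4 and 46.3 in replicate 5. Its ratio to *Scgb2b2* was not steady, at 25, 77.1, 132, 227 and 62.3 reads per 100 *Scgb2b2* reads in replicates 1 to 5. Counted together, the 5 genes *Obp1a*, *Obp1b*, *Gm5938*, *Mup4* and *Lcn11* made 80.5% to 93.8% of the reads of the 8 members in replicates 1 to 4 and 44.4% in replicate 5, where *Pip*, *Scgb2b2* and *Mucl2* made 55.6%. The grouping of genes follows the library with most counts, was read from the data and carries no test.

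**Figure D4:**
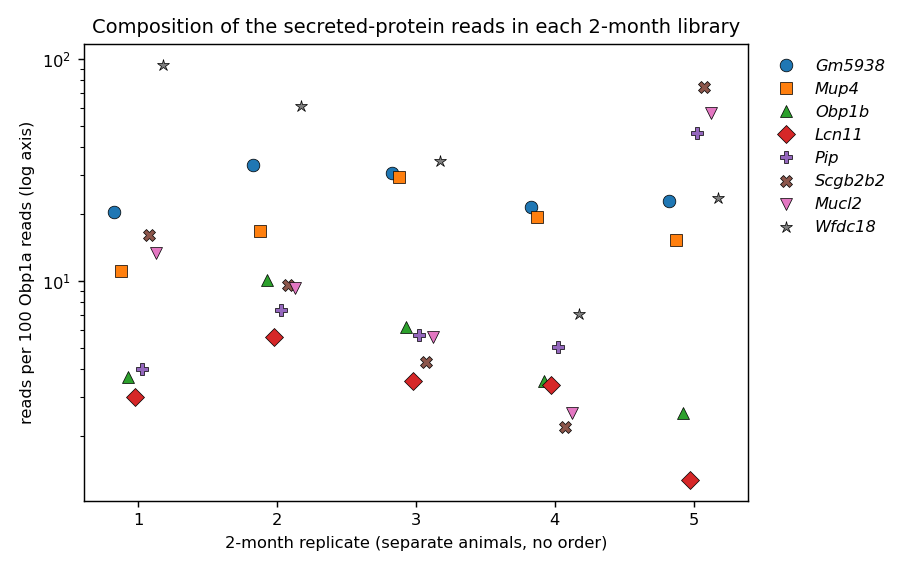
Reads of each member per 100 reads of *Obp1a* in the same library, on a log axis, for the 5 2-month replicates, which are separate animals in no order. *Gm5938* stays between 20.4 and 33.2, while *Scgb2b2*, *Mucl2* and *Pip* reach 74.4, 57.2 and 46.3 in replicate 5.

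Without replicates 4 and 5, an alternative added after the data were seen, the 2-month means of the members fell by different amounts. *Obp1a* was then 686 ± 444 (SD, n = 3), or 38.7 times the aged mean in place of 131 times, *Gm5938* 129 times in place of 339, *Pip* 39.9 in place of 259 and *Scgb2b2* 7.26 in place of 44.9. *Mucl2* came to 2.93 times in place of 14.7, and none of its 3 remaining libraries was above all aged libraries. *Wfdc18* changed least, from 6.52 to 5.69 times. The remaining 3 libraries of the other 8 members were all above every aged library. Every 2-month library of these members already was, so leaving libraries out could not change this.

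In the aged libraries the residual reads were concentrated too. Of the 720 reads of the 8 members, 467 (64.9%) came from 3 of the 15 libraries, 24-month replicate 5 with 172, 18-month replicate 2 with 163 and 12-month replicate 4 with 132. *Mucl2* and *Obp1a* were the main components in these libraries, *Mucl2* with 39.5%, 41.1% and 46.2% of the reads and *Obp1a* with 27.9%, 38.7% and 33.3%. *Scgb2b2* made 26.2% in 24-month replicate 5 and none of the reads in 18-month replicate 2. At the other end, 24-month replicate 2 had no read of the 8 members in a library of 9681497 reads, for which 3 reads are the limit that a count of 0 allows.

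Over the 20 libraries the log2 levels of the 8 members other than *Wfdc18* correlated with each other with Pearson's r of 0.643 to 0.952 in 28 pairs (median 0.859), and with *Wfdc18* with r of 0.523 to 0.763 in 8 pairs. These values describe libraries that share their age groups, and the age difference that chose the genes is in them. Among non-members, the genes whose levels were most like *Obp1a* were *Car6* (r = 0.889), *Dnase1* (0.848) and *Col5a2* (0.836). Those most like *Pip* were *Dnase1* (0.901), *2310057J18Rik* (0.854) and *Col1a1* (0.815). Those most like *Wfdc18* were *AA467197* (0.801), *Nt5e* (0.76) and *Igfbp5* (0.759), and over the 15 aged libraries alone they were *Pthlh* (0.855), *Tubb6* (0.852) and *Pstk* (0.816).

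The comparisons among aged groups do not use the 2-month libraries as a reference. They are still not independent of the choice of members, which rested on contrasts of the aged groups with the 2-month libraries. A low level in any aged group favoured that choice, which bears on the p-values below, also those of *Wfdc18* against 12 months. With limma and Benjamini-Hochberg adjustment over 11288 genes, a gene was called at an adjusted p of at most 0.05 and a change of at least 1.2-fold. No member was called at 18 vs. 12 months (background 0.00886% of genes in either direction), at 24 vs. 12 months (0.195%) or at 24 vs. 18 months (0%). All 9 members entered the fit, but 6 of them averaged under 10 normalized counts in the aged libraries and entered only through the 2-month libraries. At an unadjusted p under 0.05 there were 2 (*Wfdc18* and *Scgb2b2*), 1 (*Wfdc18*) and 0 members in these comparisons, and limma's voom on the recovered reads also called 0 in each.

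*Wfdc18* came closest. All 5 of the 18-month libraries and all 5 of the 24-month libraries were above every 12-month library. The log2 change was 2.26 (SE 0.445, limma adjusted p = 0.0915) at 18 vs. 12 months and 1.98 (SE 0.445, limma adjusted p = 0.0501) at 24 vs. 12 months. In a two-sided exact permutation test of 5 against 5 libraries, p was 0.00794 in both comparisons, the smallest that the splits of 10 libraries allow, and adjusted over the 27 tests of this kind, of 9 members in 3 comparisons, p was 0.107 in both. At 24 vs. 18 months the log2 change was -0.28 (SE 0.445, limma adjusted p = 0.975) and the groups overlapped. The call at 24 vs. 12 months turned on small changes, since leaving out 2-month replicate 1 gave an adjusted p of 0.0317 and leaving out 18-month replicate 2 gave 0.0396.

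Of the other members that averaged 10 or more normalized counts in the aged libraries, *Obp1a* changed by -1.24 and -1.61 on the log2 scale at 18 and 24 vs. 12 months (SE 1.02 in both, limma adjusted p = 0.779 and 0.469). *Mucl2* changed by -0.59 and -1.92 (SE 1.16 in both, limma adjusted p = 0.913 and 0.444). *Scgb2b2*, which averaged under 10, changed by -2.32 and -1.71 (SE 1.02 in both, limma adjusted p = 0.661 and 0.437). Its unadjusted limma p was 0.0311 at 18 vs. 12 months. With so few reads, a change among the aged groups was not detectable at this depth for *Obp1b*, *Gm5938*, *Mup4*, *Pip* or *Lcn11*.

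Other genes of tear and salivary glands were drawn from 7 lists of secreted, gland cell and protein family genes, 138 genes beside the members. Of these, 63 had no read in any library and 26 could be tested. The 3 comparisons with the 2-month group share its 5 libraries. At 12 vs. 2 months 1 gene rose and 1 fell (background 0.23% higher and 0.301% lower), at 18 vs. 2 months 1 rose and 2 fell (0.337% and 0.337%), and at 24 vs. 2 months 0 rose and 3 fell (0.31% and 0.47%). Of the 26 genes, 5 (*Bpifa2*, *Scgb1b2*, *Scgb1b20*, *Scgb2b24* and *Scgb2b27*) averaged under 10 normalized counts in the aged libraries and could be tested only because they were high at 2 months, so that a fall against 2 months is in part set by the minimum level. Counts moved with the libraries used. Without 2-month replicate 4, or without replicate 5, the number called was 1, 2 and 1, and without both it was 1 in each comparison.

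*Car6*, the carbonic anhydrase secreted into saliva and tears, was the gene called in all 3 comparisons. It had 260, 338, 600, 2478 and 195 reads in the 2-month libraries and 17 to 92 in each aged library, so that the groups did not overlap. It shared with *Obp1a* the maximum in 2-month replicate 4 but, unlike *Obp1a*, was lowest in replicate 5 in normalized counts (185). The log2 change was -3.53, -3.42 and -3.91 at 12, 18 and 24 vs. 2 months (SE 0.534; limma adjusted p = 0.000441, 0.000738 and 7e-05).

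The secretoglobins other than *Scgb2b2* were a list of 29 genes, of which 14 had no read and 4 could be tested. *Scgb1b2* had 41, 66, 26, 134 and 689 reads at 2 months and 0 to 18 in the aged libraries, and changed by -4.98 and -5.15 on the log2 scale at 18 and 24 vs. 2 months (SE 1.10, limma adjusted p = 0.0209 and 0.0165). *Scgb2b24* had 25, 21, 21, 24 and 386 reads at 2 months, and fell by 4.57 at 24 vs. 2 months (SE 1.04, limma adjusted p = 0.0253). Both were highest in 2-month replicate 5, as *Scgb2b2* was, and neither was called without that library or without replicate 4. *Scgb1b2* was also not called at 18 vs. 2 months without 18-month replicate 3, 4 or 5, or at 24 vs. 2 months without 24-month replicate 1, 2 or 3, and *Scgb2b24* was not called without 2-month replicate 1 or 24-month replicate 1, 3 or 4. Neither gene was called with a pseudocount of 0.1 or with voom. All 4 genes tested passed the minimum level only through the 2-month libraries. Their falls against 2 months are in part set by that minimum, so the p-values are given as a description only. The summed level of the list was 64.8 to 217 in replicates 1 to 4, 2299 in replicate 5 and 0 to 48.0 in the aged libraries.

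The lacrimal and salivary secreted list held 25 genes in the table, of which 10 to 16 had a read in each 2-month library and 4 to 8 in each aged library. Of the 6 tested *Car6* was the gene called. The summed level was 706, 523, 866, 2951 and 3572 in 2-month replicates 1 to 5 and 115 to 339 in the aged libraries. *Bpifa2*, a parotid secretory protein, made most of the level in replicate 5, with 2797 reads there, 0 to 12 in the other 2-month libraries and 41 in 24-month replicate 5. It was not called in any comparison (limma adjusted p = 0.407, 0.835 and 0.507). The milk protein and mucin-like list, with *Prlr* the gene tested of 9, and the meibomian and Harderian list, with 5 tested of 15 and led by *Scd1* and *Plin2*, had no call against 2 months.

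In the families of the members, most relatives had no read. Of the 31 other genes of the lipocalin, Obp and Mup families, 25 had no read in any library. *Mup5*, which shares its 3′ end in part with *Mup4*, had 0, 4, 2, 15 and 37 reads in the 2-month libraries and 0 in all aged ones. *Lcn2*, a lipocalin of inflamed epithelia, was the gene tested and was not called. In the WAP four-disulfide list, 10 of 19 genes had no read. *Wfdc2*, unlike *Wfdc18*, was higher at 18 months (2019 ± 194) than at 2 months (1274 ± 228; log2 change 0.68, SE 0.131, limma adjusted p = 0.00524). *Wfdc2* was not called at 12 or 24 vs. 2 months (limma adjusted p = 0.134 and 0.148). Without 2-month replicates 4 and 5 it was not called at 18 vs. 2 months either. Among the aged groups, both *Wfdc2* and *Wfdc18* had their highest mean at 18 months.

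Genes of gland acinar cells stayed near the median of all genes as a list. Of 11 such genes 6 could be tested, with a median log2 change of -0.08, -0.04 and -0.03 at 12, 18 and 24 vs. 2 months, against -0.0101, -0.00107 and 0.00524 over all genes tested. *Chrm3*, the muscarinic receptor that drives gland secretion, rose by 1.86 at 12 vs. 2 months (SE 0.415, limma adjusted p = 0.0279). It was not called without 2-month replicate 3, 4 or 5 or 12-month replicate 3 or 5. Nor was it called with voom, a replicate block, a fit of the 2 groups alone or no filter on low values. Of 29 alternatives, 18 called it. The acinar transcription factor *Bhlha15* had 0, 0, 1, 3 and 9 reads in the 2-month libraries and at most 11 in an aged one. *Aqp5*, the water channel of both gland and corneal epithelium, had 14063 to 22895 reads in every library. With genes this high at every age in the list, its median could not register a small amount of gland RNA. Whether gland cells were present was not tested.

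Markers of neighbouring tissues were read beside the members. The stromal keratocyte list was higher at 2 months. Of its 9 genes, 3, 4 and 5 were lower at 12, 18 and 24 vs. 2 months (background 0.301%, 0.337% and 0.47% lower). Among them were *Col1a1*, *Col1a2*, *Col3a1* and *Col5a2*, fibrillar collagens of the stroma. Without 2-month replicates 4 and 5 the counts were 2, 4 and 5. The median log2 change of the list was -1.99, -1.32 and -2.61, against -0.0101, -0.00107 and 0.00524 over all genes tested. Its summed level was 3973, 4953, 4536, 1901 and 3680 in 2-month replicates 1 to 5 and 564 to 1814 in the aged libraries, so replicate 4, the highest for *Obp1a*, was the lowest 2-month library for stroma. In the conjunctival and goblet list 2, 2 and 1 of 8 genes were lower against 2 months, *Krt4* in all 3 comparisons and *Krt19* in the first and second, and the summed level was 42755 to 63742 at 2 months and 37219 to 57673 in the aged libraries. No gene of the corneal epithelium (8 tested), skin epidermis (2), immune (4) or blood (1) lists was called, and no skeletal muscle gene could be tested. Among the aged libraries with most member reads, 24-month replicate 5 was also the highest of its group for stroma (1356 against 564 to 653) and 18-month replicate 2 was the highest of its group (1512 against 838 to 1392), whereas 12-month replicate 4 (908) was not. The part of these tissues in the members' levels was not tested.

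**Figure D5:**
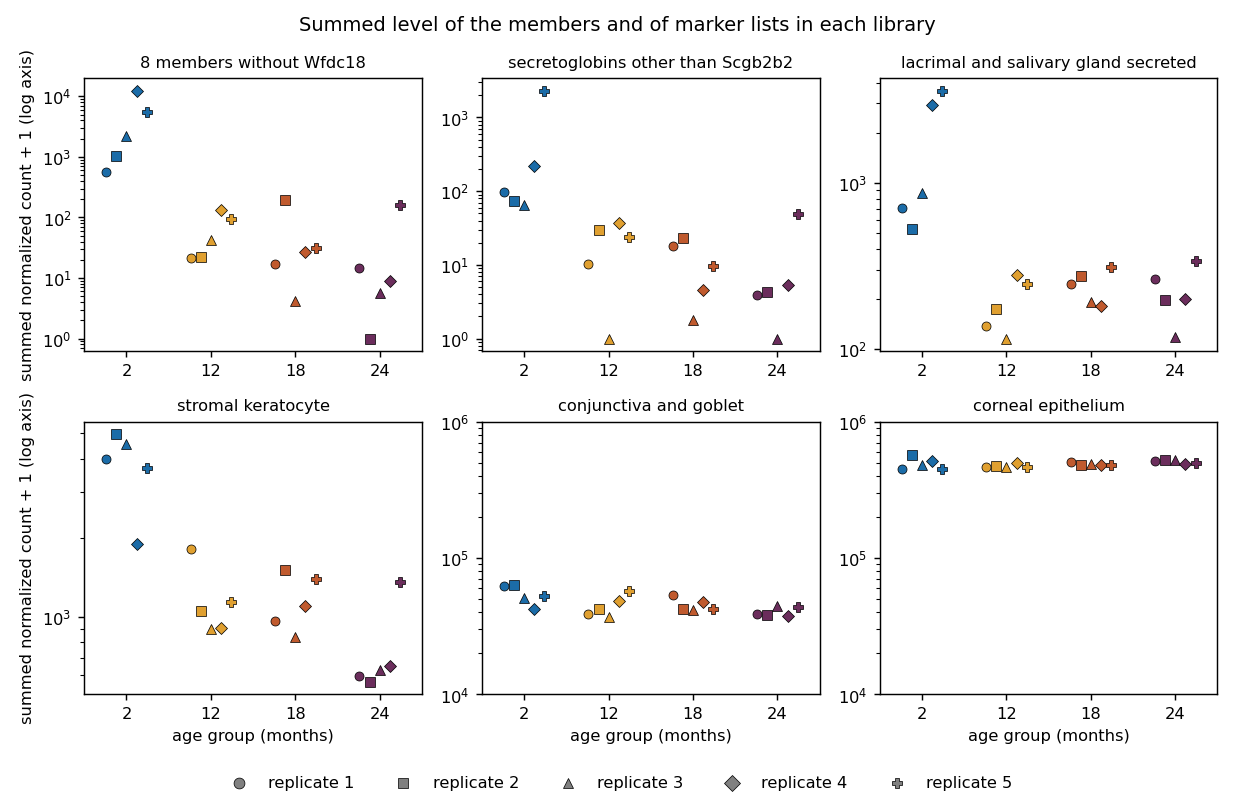
Summed normalized counts plus 1, on log axes whose range differs between panels, for the 8 members without *Wfdc18* and for 5 lists of marker genes, against age group in months. Each point is 1 library and its shape gives the replicate number. The members, the other secretoglobins and the gland list peak in 2-month replicates 4 and 5, the stromal list is lowest among 2-month libraries in replicate 4, and the corneal epithelium list stays between 450880 and 574510.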

How the data were processed

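Oligo(dT)-primed libraries were sequenced, and per the paper's methods and processing notes the authors trimmed reads with cutadapt, aligned them with STAR to GRCm38 (mm10) and counted them with HTSeq. Versions are not given in the sources used here. The deposited values are log2(normalized count + 1), normalized by the authors by relative log expression. The deposited mean is a signal over the libraries, and the deposited fold, log2 fold change, p-value and adjusted p-value columns of the authors' comparisons were not used. Reads were recovered from the steps of the deposited values, with 100% whole to within 0.01.

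Ages were compared in 1 limma (3.58.1, R 4.3.3) fit with trend over 20 libraries, on log2 values with a pseudocount of 1, for the 11288 genes whose normalized count averaged 10 or more. SE is limma's moderated standard error. The thresholds, 1.2-fold and an adjusted p of 0.05, are the study's. Replicates are separate animals. The fit was tested on simulated data. Counting limits use 3 reads and cover counting error only. Members and lists were chosen with earlier results of these data known. Named genes were the 9 members, up to 4 called genes per list with the largest change (where none was called, the 2 of highest mean) and the 3 non-members most correlated with *Obp1a*, *Pip* and *Wfdc18*. *Bpifa2*, *Bhlha15*, *Aqp5* and *Gm14743* were named after their values were seen. Alternatives were quantile normalization, other filters and pseudocounts, a replicate block, fits of 2 groups, voom, leaving out each library and leaving out 2-month replicates 4 and 5 together.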

Additional observations from a re-analysis of the deposited data

Results flagged for a closer look

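In 23 groups of 5 libraries in which a member reached 10 reads in its highest library, the gap between that library or the lowest and its neighbour was compared with the range of the group, and 15 stood apart. Chance flags about 1 in 20 groups of normally distributed values, which is no yardstick for this count, since the normalized counts are skewed and the genes were chosen for how they are distributed among libraries. In the 2-month group, replicate 4 stood apart at normalized counts of 7831 for *Obp1a*, 275.5 for *Obp1b*, 1677 for *Gm5938*, 1522 for *Mup4* and 266 for *Lcn11*. Replicate 5 stood apart at 1283 for *Scgb2b2* and 985.6 for *Mucl2*. Among the aged groups, 18-month replicate 2 stood apart at 73.89 for *Obp1a*, 30.49 for *Mup4* and 78.58 for *Mucl2*. 24-month replicate 5 stood apart at 45.18 for *Obp1a*, 42.35 for *Scgb2b2* and 64 for *Mucl2*. The others were 12-month replicate 4 for *Obp1b* at 11.02 and 18-month replicate 5 for *Scgb2b2* at 9.67, which rest on 11 and 10 reads. The members that stood apart in a library are not independent of each other. No group of *Pip* or *Wfdc18* had a library that stood apart by this measure.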

How the results depend on the processing

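No member was called at 18 vs. 12 or 24 vs. 18 months under any of the 29 alternatives. At 24 vs. 12 months *Wfdc18* was called with a filter at a mean of 50 (1 member, adjusted p = 0.0451), and leaving out 1 library gave 0 to 1 members. The log2 change of *Wfdc18* stayed positive against 12 months in all alternatives. For the 26 other gland genes, leaving out 1 library gave 1 to 3 calls at 12 vs. 2 months, 2 to 4 at 18 vs. 2 months and 1 to 3 at 24 vs. 2 months. At 12 vs. 2 months the count was 1 without 2-month replicate 3, 4 or 5 or 12-month replicate 3 or 5, and at 24 vs. 2 months it was 1 without 2-month replicate 4 or 5 or 24-month replicate 1 or 3. With no filter on low values, where 75 genes entered, the counts were 4, 6 and 6 at 12, 18 and 24 vs. 2 months. A filter at a mean of 50 gave 1 at 12 and 1 at 24 vs. 2 months, a pseudocount of 0.1 gave 1 at 24 vs. 2 months, a fit of the 2 groups alone gave 1 at 12 vs. 2 months, and voom gave 0 and 1 at 12 and 24 vs. 2 months. Without 2-month replicates 4 and 5 the count was 1 in each. The cause was not tested, except that a filter changes the genes entered. *Car6* was called in 28, 29 and 29 of 29 alternatives at 12, 18 and 24 vs. 2 months. The replicate numbers did not pair the samples, since same-numbered libraries of different ages had deviations correlated at -0.303 to 0.159 (30 pairs) and 1 of 20 libraries was closest to its own number. The replicate block gave 1 call at 12 vs. 2 months and changed no other count by over 1.5 times. Depth limits the aged groups most, where 6 members had means under 10 normalized counts.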

Other observations

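Besides the members and the lists, each library was searched for genes with at least 100 reads and at least 5 times the level of every other library. This search was made after the data were seen, and 15 of the 20 libraries had no such gene. In 2-month replicate 5 there were 11: the secretoglobins *Scgb2b2*, *Scgb1b20*, *Scgb1b27*, *Scgb1b7*, *Scgb2b24* and *Scgb2b27*, the parotid protein *Bpifa2*, the exocrine gland-secreted peptide *Esp15*, *Wfdc12*, *BC037156* and *Gm1553*. *Scgb1b20* had 519 reads there and 3 to 10 in the other 2-month libraries, *Scgb2b27* had 321 against 0 to 4, and *Wfdc12* had 129 against 0 in every other library. In 2-month replicate 4 there were 2, *Lcn11* and *Gm14743*, the neighbour of the odorant-binding genes on the X chromosome, with 338 reads against 8 to 57 in the other 2-month libraries. *Gm14743* had 43 reads in 18-month replicate 2 and 16 in 18-month replicate 3. The shared sequence with *Obp1b* applies to it as well.

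The regions before the start of *Obp1b* and *Gm14743* were the same over a run of 241 of 250 bases. The run lay 9 bases farther from the gene's own annotated start in *Gm14743* than in *Obp1b*. The regions before the start of *Obp1a* and *Gm5938* were the same at 231 of 250 bases. The longest exact run that *Obp1a* and *Obp1b* had in common in this region was 13 bases. Mismatches were not allowed, so this does not show that the regions are unrelated. In both printed sequences TATAAA is followed by similar bases. The reads of both genes were highest in 2-month replicate 4.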
